A study of Sus scrofa with 40 samples.

Results

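The corticomedullary junction (CMJ) of pig kidneys that went through warm ischemia followed by 24 h of cold storage (WI+CS24h) was compared with the CMJ of control kidneys (Ctl). The comparison rests on 10 single-colour microarrays of the 40 in the study, 5 per group, chosen by their labels alone. All kidneys came from Large White pigs aged 3 months. Ctl kidneys were removed, sampled at once and frozen. WI+CS24h kidneys were clamped, removed and kept clamped for 60 min at 37 °C, after which they were flushed with cold University of Wisconsin solution (UW) and held in it at 4 °C for 24 h before sampling. The remaining CMJ groups, used here beside the main comparison, were 5 kidneys sampled directly after the 60 min of warm ischemia (WI) and the 5 cold-stored kidneys sampled earlier, at 6 h (WI+CS6h). The cortex of the Ctl and WI+CS24h kidneys was used in the same way. Ctl, WI and cold-stored kidneys were independent, but the 6 h and 24 h samples came from the same 5 kidneys. The model ended before transplantation, so no kidney was reperfused with blood. The labels name no genetic change and no drug in any group.

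The CMJ is the zone where cortex passes into outer medulla. It holds the straight part of the proximal tubule, whose cells depend on oxidative metabolism and fatty acids and have little capacity for glycolysis, together with thick ascending limbs and collecting ducts. Its oxygen supply is low even in the resting kidney, which makes it a classical site of ischemic injury. Warm ischemia stops oxygen supply at body temperature, whereas storage at 4 °C slows, but does not stop, enzymatic reactions and transcription. Immediate early genes, such as the AP-1 subunit FOS, are transcribed within minutes of a stimulus without new protein synthesis and encode short-lived mRNAs.

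Signals are given as log2 of the quantile-normalised array signal, so that 1 unit stands for a doubling. They are relative to the other RNA of the same sample, and a gene's level can be compared between arrays but not with the level of another gene. Between 61.4 and 67.8% of the spots were well above background on the Ctl arrays and between 62.2 and 66% on the WI+CS24h arrays. Differences are WI+CS24h minus Ctl with their standard error (SE) from limma, and a gene was called at an adjusted p below 0.05 with a log2 difference of at least 0.5 in either direction. A gene here is an identifier on the array. Of the 35938 tested, 8942 carried a gene symbol.

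The array measured the 3 genes that mark this comparison, FOS, ANGPTL4 and GSTA2, through probes of 60 bases, shown because the values that follow rest on them. Each is given 5′ to 3′ as printed in the scanner files.
FOS, probe A_72_P441284: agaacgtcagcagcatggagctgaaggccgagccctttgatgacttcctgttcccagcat
GSTA2, probe A_72_P127076: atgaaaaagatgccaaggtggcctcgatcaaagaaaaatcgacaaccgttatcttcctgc
ANGPTL4, probe A_72_P718758: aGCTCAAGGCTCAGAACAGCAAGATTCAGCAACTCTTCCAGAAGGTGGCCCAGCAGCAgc
ANGPTL4, probe A_72_P359633: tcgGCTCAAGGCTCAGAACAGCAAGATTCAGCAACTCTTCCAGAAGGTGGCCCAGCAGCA
The capitals mark a run of 57 bases that the ANGPTL4 probes have in common. These probes therefore read nearly the same stretch of mRNA and are not separate measurements of it. No other probe of the array shared a run of 25 bases with the FOS or the GSTA2 probe. Genome positions of the probes were not analysed here.

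Kidney 5 of the cold-stored group stood apart from the others. The summed linear signal of 14 measured leukocyte markers was 3830 in its 24 h sample and 4180 in its 6 h sample, whereas the other WI+CS24h arrays lay between 1270 and 1310 and the Ctl arrays between 1190 and 1570. Within that list the T cell genes CD3D and CD3E were lowest in this kidney, at 4.7 and 4.12. S100A12, a gene of neutrophils, stood at 10.91 against 2.34 to 5.09 in the other 4 WI+CS24h kidneys and 2.38 to 3.36 in Ctl. Kidney 4 also lay above every Ctl array for S100A12 (5.09), S100A8 (4.48) and S100A9 (3.69). The summed proximal tubule signal was 86600 in kidney 5, 124000 to 150000 in the other 4 WI+CS24h kidneys and 125000 to 152000 in Ctl. That sum follows a few very bright genes, PCK1, FBP1 and LRP2, which read 14.71, 13.28 and 13.54 in kidney 5. Of the 14 members detected on all 10 arrays, 6 lay below every Ctl array in this kidney, 6 lay above every one, among them the organic anion transporter genes SLC22A6 (11.42) and SLC22A8 (11.63), and 2 lay within the Ctl range. This was not all particular to kidney 5. SLC22A6 and SLC22A8 also lay above every Ctl array in stored kidneys 1, 2 and 4. PCK1 and FBP1 also lay below every Ctl array in kidneys 1 and 2. Results were therefore also computed with kidney 5 left out at both storage times. The number of called genes was then 1448 (531 higher, 917 lower), against 1313 with all kidneys.

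**Figure D1:**
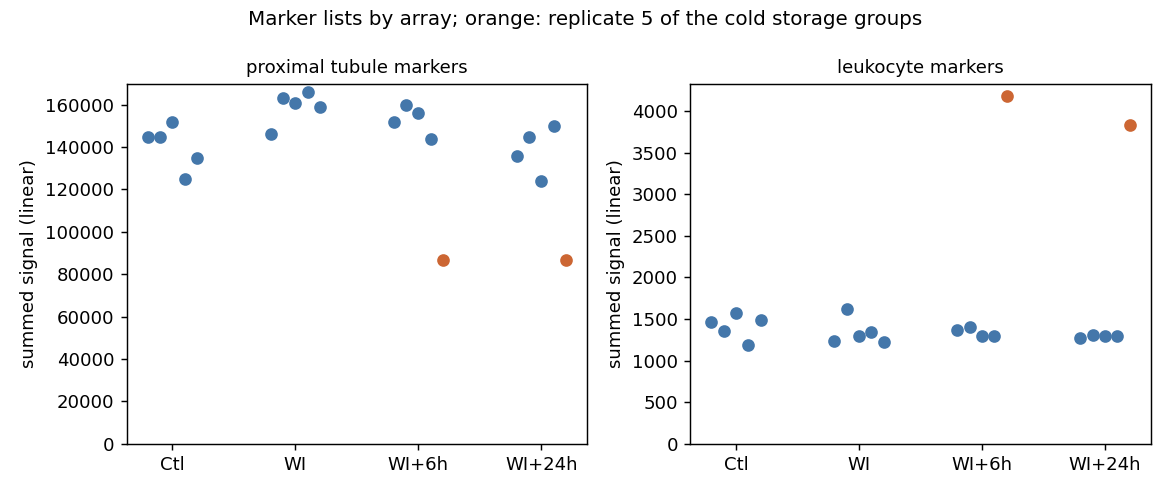
Summed linear signal of the proximal tubule and leukocyte marker lists (vertical axes, from 0) on each CMJ array, by group (horizontal axis). The orange points, kidney 5 at 6 h and at 24 h, lie at 86500 and 86600 for the proximal tubule list and at 4180 and 3830 for the leukocyte list, away from the other arrays of both lists. The proximal tubule sum follows its brightest genes, and 6 of 14 detected members of kidney 5 at 24 h lay above every Ctl array.

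Genes of the tubules that the CMJ should hold were present. Of 15 measured proximal tubule genes, 14 were well above background on all 10 arrays, and none was called between the groups (median log2 difference 0.04). The phosphate transporter gene SLC34A1 read 13.92 to 14.06 in Ctl and 13.52 to 14.47 in WI+CS24h. MIOX, the first enzyme of inositol breakdown, read 12.93 to 13 in the 5 Ctl kidneys but spread from 12.46 to 14.43 in WI+CS24h, so the stored kidneys differed among themselves in a gene that hardly varied in Ctl. All 9 measured thick ascending limb genes were well above background on all 10 arrays and none was called. In bulk tissue, fewer cells of a type and less RNA per cell cannot be told apart.

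Against Ctl, 1313 of 35938 genes were called in WI+CS24h (3.65%), of which 486 were higher (1.35%) and 827 lower (2.3%). This balance depended on the scaling, since quantile normalisation within each group gave 973 higher and 804 lower. The median absolute log2 difference of the called genes was 0.8, 425 of them differed by at least 1 and 57 by at least 2. The median over all genes tested was 0.004. The arrays of the groups did not overlap for 5.45% of all genes, and for 972 of the 1313 called genes. Called genes with a symbol divided evenly, with 167 higher and 171 lower.

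FOS gave one of the clearest rises. The Ctl arrays read 10.09, 9.39, 9.55, 9.29 and 10.74, and the WI+CS24h arrays 12.66, 12.5, 12.97, 12.84 and 13.18. Every stored kidney lay above every control, and the rise was 3.02 ± 0.25 (SE, n = 5 per group, adjusted p = 1.31e-06). The FOS probe shown above belongs to a separate identifier of the same gene, which rose by 3.19 ± 0.27 (SE, n = 5 per group, adjusted p = 2e-06).

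Other immediate early genes rose with FOS. Of 31 measured members of the immediate early and AP-1 list, 10 were called higher and 1 lower, 35.5% against 3.65% of all genes, and the list's median log2 difference was 0.28. This list and those that follow were chosen with earlier results of these data known. A share above that of all genes is therefore no test of a list. FOSB, a second FOS family member, was not well above background on any Ctl array (0.28 to 0.49) and read 3.34, 3.27, 3.24, 2.43 and 4.97 in WI+CS24h. It was at least 2.21-fold higher (adjusted p = 0.000266). EGR1, a zinc finger transcription factor, read 3.56, 2.67, 3.32, 3.08 and 4.38 in Ctl against 5.8, 5.74, 5.59, 5.47 and 6.21, a rise of 2.36 ± 0.24 (adjusted p = 1.78e-05). NR4A2, an orphan nuclear receptor, read 5.42, 5.19, 5.24, 4.99 and 5.46 in Ctl. In WI+CS24h it read 8.45, 8.57, 8.02, 8.42 and, in kidney 5, 6.7, and it rose by 2.77 ± 0.32 (adjusted p = 5.58e-05). BTG2, an antiproliferative gene, rose from a mean of 8.91 to 10.86 (1.95 ± 0.2, adjusted p = 1.78e-05).

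The remaining called members of the list were chosen for mention after their values were seen. BCL6 rose by 1.27, NR4A3 by 1.1, JUN by 0.94, CEBPA by 0.85 and KLF6 by 0.64, with adjusted p between 0.000295 and 0.0408. CEBPD, a C/EBP factor of the acute phase response, was the only member called lower, by 0.73 ± 0.11 on the log2 scale (adjusted p = 0.000564). CYR61 and KLF4 had differences of 0.89 and 0.8 but missed the threshold (adjusted p = 0.0876 and 0.0501). MYC, MCL1 and FOSL2 had differences of 0.07, -0.05 and 0.09. The count of called rises in the list ranged from 6 to 12 over the processing alternatives, and its median from 0.07 to 0.35 over the scalings. With normexp background correction, which pulls dim signals together, EGR1 and FOSB fell below the 0.5 limit, at 0.38 and 0.14. The adjusted p of EGR1 was still 0.000449, whereas that of FOSB was 0.123. In the paragraphs below too, a call lost with normexp can be one that missed the 0.5 limit alone.

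**Figure D2:**
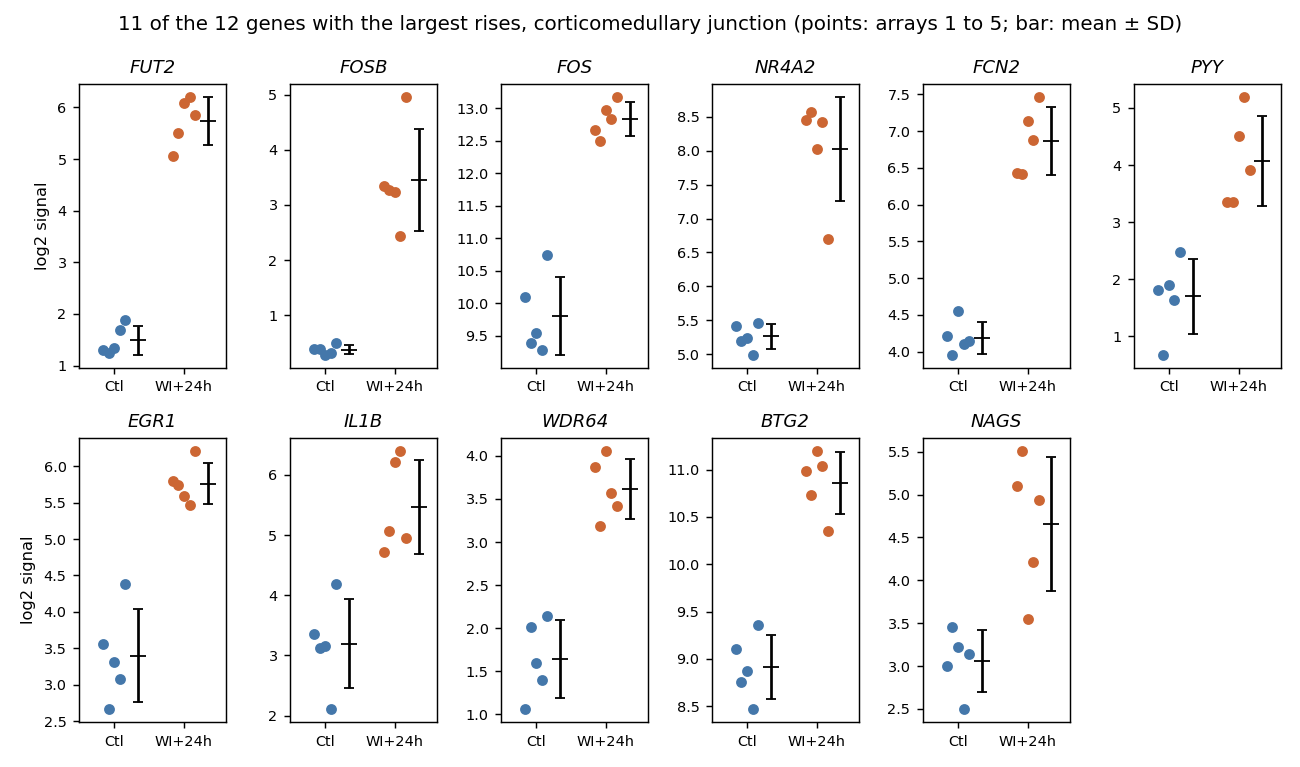
Log2 signal (vertical axes) of 11 of the 12 genes with the largest called rises on the 5 Ctl and 5 WI+CS24h CMJ arrays. Points are arrays and the bar beside them is the mean ± SD. In each panel all 5 stored kidneys lie above all 5 controls, which was a condition for being shown.

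FUT2, a fucosyltransferase gene whose product builds the H antigen of secreted and epithelial glycans, rose, but by an amount that is uncertain. Its only probe detected on all 10 arrays went from a mean of 3.77 to 5.45, a difference of 1.69. The other 2 probes went from 0.57 to 5.6 and from 0.14 to 6.17, with no Ctl array above background. Averaged over the 3 probes, the Ctl arrays read 1.31, 1.24, 1.34, 1.69 and 1.89 and the WI+CS24h arrays 5.06, 5.5, 6.09, 6.21 and 5.85. The groups did not overlap and the fitted difference of 4.25 ± 0.26 (adjusted p = 2.35e-08) rests mostly on the probes at background in Ctl. FCN2, a ficolin of the lectin complement pathway, rose from a mean of 4.2 to 6.87 (2.67 ± 0.51, adjusted p = 0.00424). PYY, a gut peptide hormone gene, was not above background in Ctl and was at least 3.18-fold higher (adjusted p = 0.00348). WDR64 was likewise not above background in Ctl and was at least 2.44-fold higher (adjusted p = 3.89e-05). Both were well above background on all 5 WI+CS6h arrays and on all 5 WI+CS24h cortex arrays as well. NAGS, the mitochondrial enzyme that makes the activator of the urea cycle, rose by 1.6 ± 0.37 (adjusted p = 0.0155). Under normexp background correction the differences of FUT2 and FCN2 were 0.51 and 0.65, still called, and PYY, WDR64 and NAGS were no longer called, at 0.15, 0.06 and 0.17.

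CYP2C42 had the largest fall. This gene of the CYP2C subfamily of cytochromes P450, which oxidise drugs and fatty acids, read 7.54, 8.4, 8.51, 8.23 and 3.58 in Ctl, and 0.4, 0.71, 1.68, 1.49 and 0.63 in WI+CS24h. No WI+CS24h array was well above background, so only a bound can be given. It was at least 26.8-fold lower (adjusted p = 0.000978). Control kidney 5 was far below the other controls but still above every stored kidney, and without it the bound was 50.6-fold. Of 33 measured P450 genes, 4 were called lower and none higher by their brightest identifier, 12.1% against 3.65% of all genes, with a median of -0.24. Over the alternatives 2 to 6 were called lower and 0 to 1 higher, and over the scalings the median ran from -0.24 to -0.04, the value with normexp background correction. CYP24A1, the vitamin D hydroxylase, had a difference of 0.24 on that identifier (adjusted p = 0.333) but rose by 0.63 ± 0.16 on a dimmer one (adjusted p = 0.025). CYP39A1, an oxysterol hydroxylase of bile acid synthesis, fell by 1.13 ± 0.13 (adjusted p = 5.9e-05), whereas its second, dimmer identifier had a difference of 0.21 ± 0.13 (adjusted p = 0.462). CYP4A21, of a fatty acid hydroxylase subfamily, was called lower at -0.72 ± 0.12 (adjusted p = 0.00194), but its Ctl arrays held saturated spots, so the size is uncertain. Its brightest probe went from 15.8 to 15.48, the others differed by -0.74 to -1.03, and the call was lost on the brightest probe alone. The mitochondrial sterol hydroxylase gene CYP27A1 fell by 0.77 ± 0.2 (adjusted p = 0.0301) and lost its call in 8 of 23 alternatives. CYP2A19 had a log2 difference of -2.61 with non-overlapping arrays but missed the threshold (adjusted p = 0.0993). It read 8.49, 8.57, 6.41, 6.27 and 3.59 in the 5 stored kidneys, so the stored kidneys were far apart. With kidney 5 left out its difference was -1.84 and its adjusted p 0.0436. CYP2C probes can share sequence within the subfamily, so the split of signal among its members is uncertain.

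GSTA2, an alpha-class glutathione S-transferase that conjugates electrophiles and lipid peroxidation products, fell. The Ctl arrays read 10.97, 10.88, 11.01, 10.59 and 10.93 and the WI+CS24h arrays 8.8, 9.14, 7.35, 7.55 and 7.9. The groups did not overlap, and the fall was 2.73 ± 0.52 on the log2 scale (SE, n = 5 per group, adjusted p = 0.0041). A second identifier of the gene fell by 2.28 ± 0.44 (adjusted p = 0.00467). Of 9 measured glutathione S-transferases GSTA2 was the only one called, 11.1% against 3.65% of all genes. Over the alternatives 1 to 2 were called lower and 0 to 1 higher. GSTA1 had a log2 difference of 2.21 ± 1.01 in the opposite direction (adjusted p = 0.26), with a Ctl spread of 7.16 ± 2.52 (SD, n = 5). No member of the NRF2 and heme list (27 measured, median 0.04) was called, and HMOX1, heme oxygenase 1, had a difference of 0.76 ± 0.23 (adjusted p = 0.0708). For this list 0 to 1 were called in each direction over the alternatives, and 1 was called lower without stored kidney 5 at both times.

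**Figure D3:**
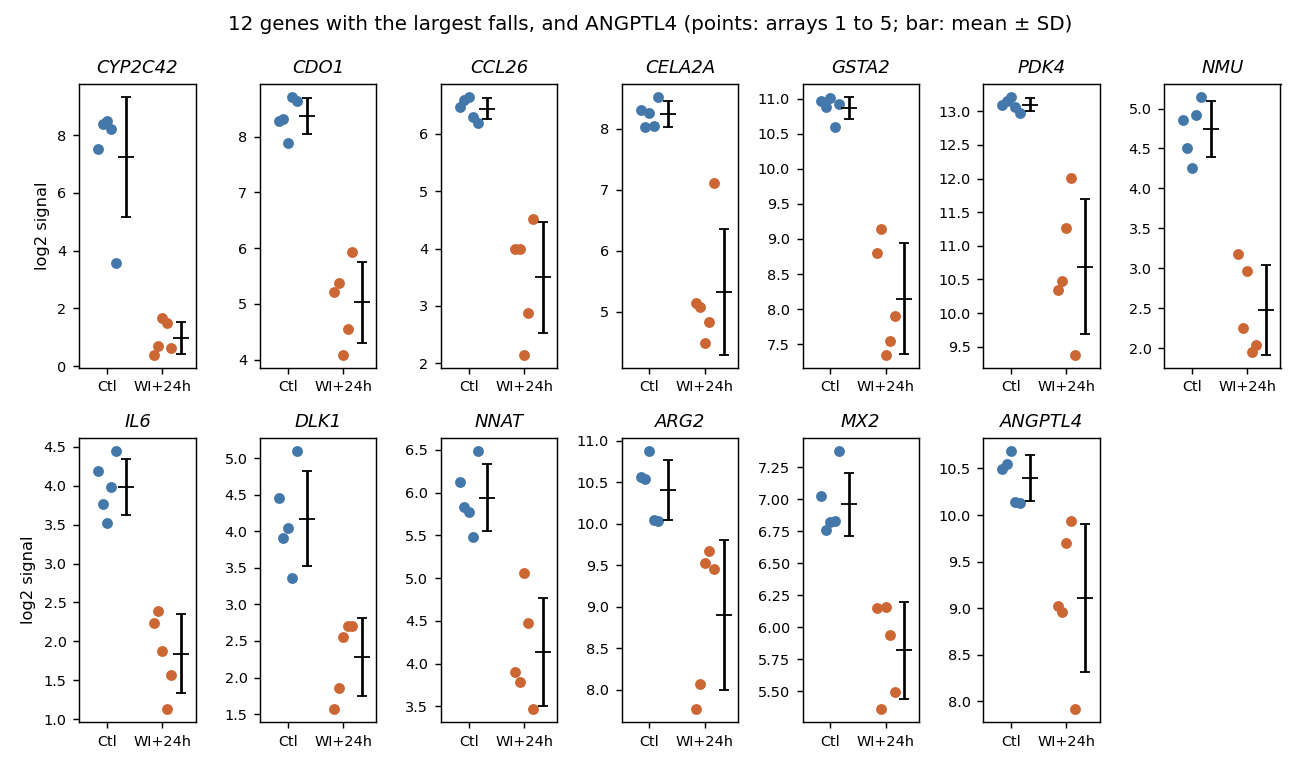
Log2 signal (vertical axes) of the 12 genes with the largest called falls, and of ANGPTL4, on the 5 Ctl and 5 WI+CS24h CMJ arrays. Points are arrays and the bar beside them is the mean ± SD. All 5 stored kidneys lie below all 5 controls in each panel, which was a condition for the first 12, and the stored kidneys of PDK4 spread from 9.38 to 12.01.

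ANGPTL4 is a secreted inhibitor of lipoprotein lipase and a target of both hypoxia-inducible factors and PPAR. It read 10.49, 10.55, 10.69, 10.14 and 10.13 in Ctl and 9.02, 8.96, 9.7, 9.94 and 7.92 in WI+CS24h. The groups did not overlap, kidney 5 was lowest and kidney 4 came close to the controls. The fall was 1.29 ± 0.37 on the log2 scale (SE, n = 5 per group, adjusted p = 0.0481). The second identifier, with the overlapping probe, differed by -1.27 and missed the threshold (adjusted p = 0.058). The call was a borderline one, lost in 11 of 23 alternatives, over which the adjusted p ranged from 0.0152 to 0.111 and the log2 difference from -1.5 to -1.

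Of 44 measured members of the fatty acid oxidation and PPARA list, 6 including ANGPTL4 were called lower and none higher by their brightest identifier, 13.6% against 3.65% of all genes, with a median of -0.17. Dimmer identifiers of SCP2, a sterol carrier, and ACOX2, a peroxisomal oxidase, were called in opposite directions (0.52 and -0.7, adjusted p = 0.0171 and 0.00534). PDK4, the kinase that turns off pyruvate dehydrogenase when fat is burned, read 13.1, 13.16, 13.22, 13.06 and 12.98 in Ctl. In WI+CS24h it read 10.34, 10.48, 11.27, 12.01 and 9.38, and it fell by 2.41 ± 0.42 (adjusted p = 0.00243). The controls lay between 12.98 and 13.22, and the stored kidneys were spread over a far wider range below them. HADHA, of the mitochondrial trifunctional protein, fell by 0.93 ± 0.21 (adjusted p = 0.0134), CPT2, which hands acyl groups to mitochondrial CoA, by 0.74 ± 0.17 (adjusted p = 0.0126, not called with normexp background correction at -0.42), and the peroxisomal enzyme gene HSD17B4 by 0.61 ± 0.15 (adjusted p = 0.0232, lost in 10 of 23 alternatives). PLIN2, a lipid droplet coat protein chosen for mention after its value was seen, fell by 1.49 ± 0.41 (adjusted p = 0.0423). PPARA itself had a difference of 0.79 ± 0.23 (adjusted p = 0.058). The number called lower ranged from 3 to 7 over the alternatives, the median from -0.18 to -0.08 over the scalings, and with kidney 5 left out 2 members were called higher.

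Of 33 hypoxia targets, 3 were called, all lower (9.09% against 2.3% of all genes called lower, and 1 to 3 over the alternatives), and the list's median was -0.01. They were ANGPTL4, DDIT4 (also a p53 target and an inhibitor of mTORC1), which fell by 0.95 ± 0.19 (adjusted p = 0.0056), and the glycoprotein hormone gene STC2, which fell by 0.94 ± 0.19 (adjusted p = 0.00571) and was not called with normexp background correction (-0.2). EPO, erythropoietin, had a difference of -1.17 ± 0.42 (adjusted p = 0.135). None of 22 genes of glucose metabolism was called. Over the alternatives 0 to 1 were called in each direction, and 1 was called higher without stored kidney 5 at both times. Among 32 genes of amino acid, creatine and urea metabolism, 3 were called, all lower, 9.38% against 2.3% of all genes called lower. The falls numbered 1 to 3 over the alternatives, with 1 when stored kidney 1 or 2 or control kidney 1, 2 or 3 was left out, and the rises 0 to 3, with 2 without stored kidney 5 at both times. CDO1, which oxidises cysteine to its sulfinic acid, read 8.29, 8.31, 7.89, 8.72 and 8.64 in Ctl and 5.22, 5.37, 4.09, 4.55 and 5.94 in WI+CS24h, a fall of 3.34 ± 0.35 (adjusted p = 1.78e-05). ARG2, the mitochondrial arginase, read 10.56, 10.54, 10.88, 10.05 and 10.03 in Ctl and 7.77, 8.07, 9.53, 9.67 and 9.45 in WI+CS24h. It fell by 1.52 ± 0.43 (adjusted p = 0.0468), and a dimmer identifier by 2.65 ± 0.47 (adjusted p = 0.00247). The folate enzyme gene MTHFD1 fell by 0.58 ± 0.15 (adjusted p = 0.0309). The calls of the brighter ARG2 identifier and of MTHFD1 were each lost in 11 of 23 alternatives.

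Cytokine genes changed in both directions. Of 48 measured members of the NF-kB and cytokine list, 5 were called higher and 4 lower, 18.8% against 3.65% of all genes, and the median was 0. The rises numbered 2 to 8 over the alternatives, with 8 when control kidney 5 and 3 when control kidney 4 was left out, and 7 without stored kidney 5 at both times. IL1B, interleukin 1 beta, read 3.36, 3.13, 3.16, 2.11 and 4.19 in Ctl and 4.72, 5.06, 6.21, 6.4 and 4.95 in WI+CS24h, a rise of 2.28 ± 0.42 (adjusted p = 0.00317). IL6, interleukin 6, read 4.19, 3.77, 3.52, 3.98 and 4.45 in Ctl and 2.24, 2.39, 1.88, 1.13 and 1.57 in WI+CS24h, a fall of 2.14 ± 0.25 (adjusted p = 7.86e-05). A second IL6 identifier, dim on all WI+CS24h arrays, was at least 1.34-fold lower (adjusted p = 9.39e-05). Both cytokine genes lay near background, and with normexp background correction they differed by 0.34 and -0.16 and were not called. The adjusted p was then 0.056 for IL1B and 0.000155 for IL6. CCL26, an eosinophil chemokine, fell by 2.94 ± 0.55 (adjusted p = 0.00382), from 6.19 to 6.65 in Ctl to 2.15 to 4.51.

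MAP3K8, a MAP kinase kinase kinase that acts downstream of NF-kB signals, fell by 1.15 ± 0.19 (adjusted p = 0.00139), and ZFAND5, a zinc finger protein that binds ubiquitin, by 0.83 ± 0.12 (adjusted p = 0.000486). With normexp background correction MAP3K8 missed the log2 limit of 0.5 and was not called (-0.49, adjusted p = 0.00161). The other called rises of the list, named after their values were seen, were the chemokine genes CCL2 (1.12) and CXCL2 (0.83), the dendritic cell maturation marker CD83 (1.07) and the cytokine signalling inhibitor SOCS3 (0.79), with adjusted p between 0.00456 and 0.0368. The identifiers of CXCL8, a neutrophil chemokine, stood on both sides of the threshold. The brighter one had a difference of 1.16 (adjusted p = 0.0894) and was not counted as called, while the other rose by 0.89 ± 0.18 (adjusted p = 0.00624). CCL5 missed the threshold (-1.04, adjusted p = 0.146). In kidney 5, which carried the leukocyte signal described above, IL1B read 4.95, inside the range of the other stored kidneys. Its part in the cytokine values was not tested beyond leaving it out, after which IL1B differed by 2.41 (adjusted p = 0.00484), IL6 by -2.07 (adjusted p = 1e-04) and CCL26 by -3.19 (adjusted p = 0.00285).

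Of 32 measured interferon-stimulated genes, 2 were called, both lower, 6.25% against 2.3% of all genes called lower. Only 3 had a difference above 0 (3 to 9 over the scalings), and the median was -0.46, the lowest of the lists in the plot of gene lists, against 0.004 for all genes. Over the scalings the median ran from -0.49 to -0.15. MX2, a dynamin-like antiviral GTPase, read 7.03, 6.76, 6.82, 6.83 and 7.38 in Ctl and 6.15, 5.36, 6.16, 5.94 and 5.49 in WI+CS24h, a fall of 1.14 ± 0.19 (adjusted p = 0.00138). Its other identifiers fell by 1.23 and 1.65. With normexp background correction MX2 missed the log2 limit of 0.5 and was not called (-0.4, adjusted p = 0.00189). GBP2, a guanylate-binding protein, fell by 0.87 ± 0.16 (adjusted p = 0.00293). ISG15, ISG20 and OAS1 had differences of -0.92, -1.06 and -0.91 with adjusted p of 0.0989, 0.106 and 0.142. MX1 varied among the controls by more than it differed between groups (7.49 ± 2.08 in Ctl, 6.9 ± 0.36 in WI+CS24h, SD, n = 5).

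Of 23 measured heat shock genes, 1 was called, 4.35% against 3.65% of all genes. It was the cochaperone gene DNAJA4, with a rise of 0.64 ± 0.17 (adjusted p = 0.034) that was lost in 10 of 23 alternatives, among them leaving out kidney 5 (0.55, adjusted p = 0.0697). The list's median was 0.24 (0.22 to 0.37 over the scalings) and 21 members had a difference above 0. For 8 of the 23 members all stored kidneys lay above all controls, and for 0 they all lay below. Over all genes, 5.45% had arrays that did not overlap, counted in either direction. Between 0 and 5 members were called higher over the alternatives, with 5 under quantile normalisation within groups, 0 without stored kidney 5 or control kidney 2 or 4, and 2 without stored kidney 1 or 3. HSP70.2, the inducible HSP70, read 10.12 in stored kidney 1 and 7.68 to 8.28 in the other 4, all above the Ctl range of 6.42 to 7.41, with a difference of 1.33 ± 0.49 (adjusted p = 0.146). Of 14 genes of the unfolded protein response, 3 were called, 21.4% against 3.65% of all genes. DDIT3, the proapoptotic factor CHOP, rose by 0.63 ± 0.14 (adjusted p = 0.0128), while the cochaperone DNAJC3 fell by 0.65 ± 0.15 (adjusted p = 0.0126) and the stress sensor ERN1 by 0.5 ± 0.1 (adjusted p = 0.00789), a call at the threshold that was lost in 13 of 23 alternatives. Of 16 genes of p53 and growth arrest, the kinase genes PLK3 and DYRK2 rose, by 1.16 ± 0.19 and 0.71 ± 0.1 (adjusted p = 0.00119 and 0.000294), and DDIT4 fell, 18.8% against 3.65% of all genes. With normexp background correction DYRK2 was not called (0.33, adjusted p = 0.0912). Of 20 cell division genes, 18 had a difference above 0 (median 0.34, and 0.1 to 0.4 over the scalings) and the mitotic kinase gene AURKB alone was called (5% against 3.65% of all genes), with a difference of 0.69 ± 0.14 (adjusted p = 0.00624). Its probes did not move together. The brightest went from 9.5 to 9.57, the others differed by 0.97 and 1.04, and the call was lost on the brightest probe alone (0.06) and with normexp background correction (0.15).

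In the SMAD, TGF-beta and BMP list, 2 of 30 were called, 6.67% against 3.65% of all genes. They were ID2 and SMAD6, inhibitory targets of BMP signals, which rose by 0.72 ± 0.17 and 0.68 ± 0.12 (adjusted p = 0.0163 and 0.00243). With normexp background correction SMAD6 was no longer called (0.35). Of 163 solute carriers, 6 were called higher and 3 lower, 5.52% against 3.65% of all genes. The rises numbered 1 to 9 over the alternatives, with 3 when stored kidney 2 or control kidney 4 was left out. SLC46A2 rose by 1.27 ± 0.23 (adjusted p = 0.00348) and the organic cation transporter SLC22A2 by 0.61 ± 0.12 (adjusted p = 0.00386). The mitochondrial carrier SLC25A27 fell by 1.18 ± 0.16 (adjusted p = 0.000263) and the glutamine transporter SLC38A1 by 0.74 ± 0.14 (adjusted p = 0.0041). The calls of SLC46A2 and SLC38A1 were lost with normexp background correction (0.15 and -0.15) and with the deposited matrix (0.42 and -0.35), and that of SLC22A2 with the deposited matrix (0.33). The histone gene HIST1H2BD was called higher at 0.59 ± 0.1 (adjusted p = 0.00172), but its brightest probe went from 11.46 to 11.7 and alone was not called (0.24, adjusted p = 0.426).

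Several large falls belonged to no list. The peptide gene NMU, neuromedin U, read 4.86, 4.51, 4.26, 4.92 and 5.15 in Ctl and 3.18, 2.25, 2.97, 1.95 and 2.04 in WI+CS24h, where 1 array was well above background, and it fell by 2.26 ± 0.23 (adjusted p = 1.47e-05). CELA2A, an elastase gene, fell by 2.9 ± 0.7 (adjusted p = 0.0204), with kidney 5 at 7.12 and the other 4 stored kidneys at 4.49 to 5.14. The imprinted gene DLK1, a Notch ligand homologue, fell by 1.9 ± 0.31 (adjusted p = 0.00136) and NNAT, another imprinted gene, by 1.8 ± 0.3 (adjusted p = 0.00162). With normexp background correction NMU, DLK1 and NNAT were no longer called, at -0.19, -0.15 and -0.36.

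Of 10 measured collecting duct principal cell genes, 3 were called, all higher, 30% against 1.35% of all genes called higher. SCNN1G, the gamma subunit of the epithelial sodium channel, rose by 0.85 ± 0.18 (adjusted p = 0.0101), HSD11B2, which protects the mineralocorticoid receptor from cortisol, by 0.67 ± 0.17 (adjusted p = 0.0282) and the transcription factor GATA3 by 0.83 ± 0.23 (adjusted p = 0.0429). The calls of HSD11B2 and GATA3 were lost in 7 and 11 of 23 alternatives. The list's median was 0.1 and its summed signal overlapped between groups, 6930 to 12000 in Ctl and 7190 to 12300 in WI+CS24h. The magnesium channel gene TRPM6, 1 of 3 distal convoluted tubule genes, fell by 0.56 ± 0.15 (adjusted p = 0.042, lost in 13 of 23 alternatives), and AKR1B1, aldose reductase of the sorbitol pathway and 1 of 5 genes of thin limb and inner medulla, by 1.4 ± 0.37 (adjusted p = 0.0358). The Ctl arrays of AKR1B1 read 8.95, 8.19, 6.97, 9.09 and 9.86, which overlaps the stored range of 6.84 to 8.04, and the call was lost in 11 of 23 alternatives. The VEGF receptor gene KDR, 1 of 7 endothelial genes, rose by 0.65 ± 0.13 (adjusted p = 0.00595). None of 14 leukocyte, 7 fibroblast, 4 smooth muscle, 4 erythrocyte, 3 podocyte, 3 intercalated, 8 adipocyte or 12 skeletal muscle markers was called by its brightest identifier. A dimmer identifier of the fibroblast gene COL6A3 rose by 0.87 (adjusted p = 0.0439). The intercalated sum was 382 to 514 in Ctl and 496 to 1230 in WI+CS24h, and the skeletal muscle sum 463 to 743 and 636 to 918. The adipocyte sum, which includes the bright gene PCK1, was 50400 to 58000 and 28200 to 57100.

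None of 10 reference genes (median -0.02), 53 cytosolic ribosomal protein genes (-0.07), 27 proteasome genes (-0.04), 36 nuclear genes of the respiratory chain and ATP synthase (0.07) or 11 aquaporins (-0.09) was called by its brightest identifier. A dimmer identifier of the ribosomal gene RPL11 fell by 0.6 on the log2 scale (adjusted p = 0.0111).

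**Figure D4:**
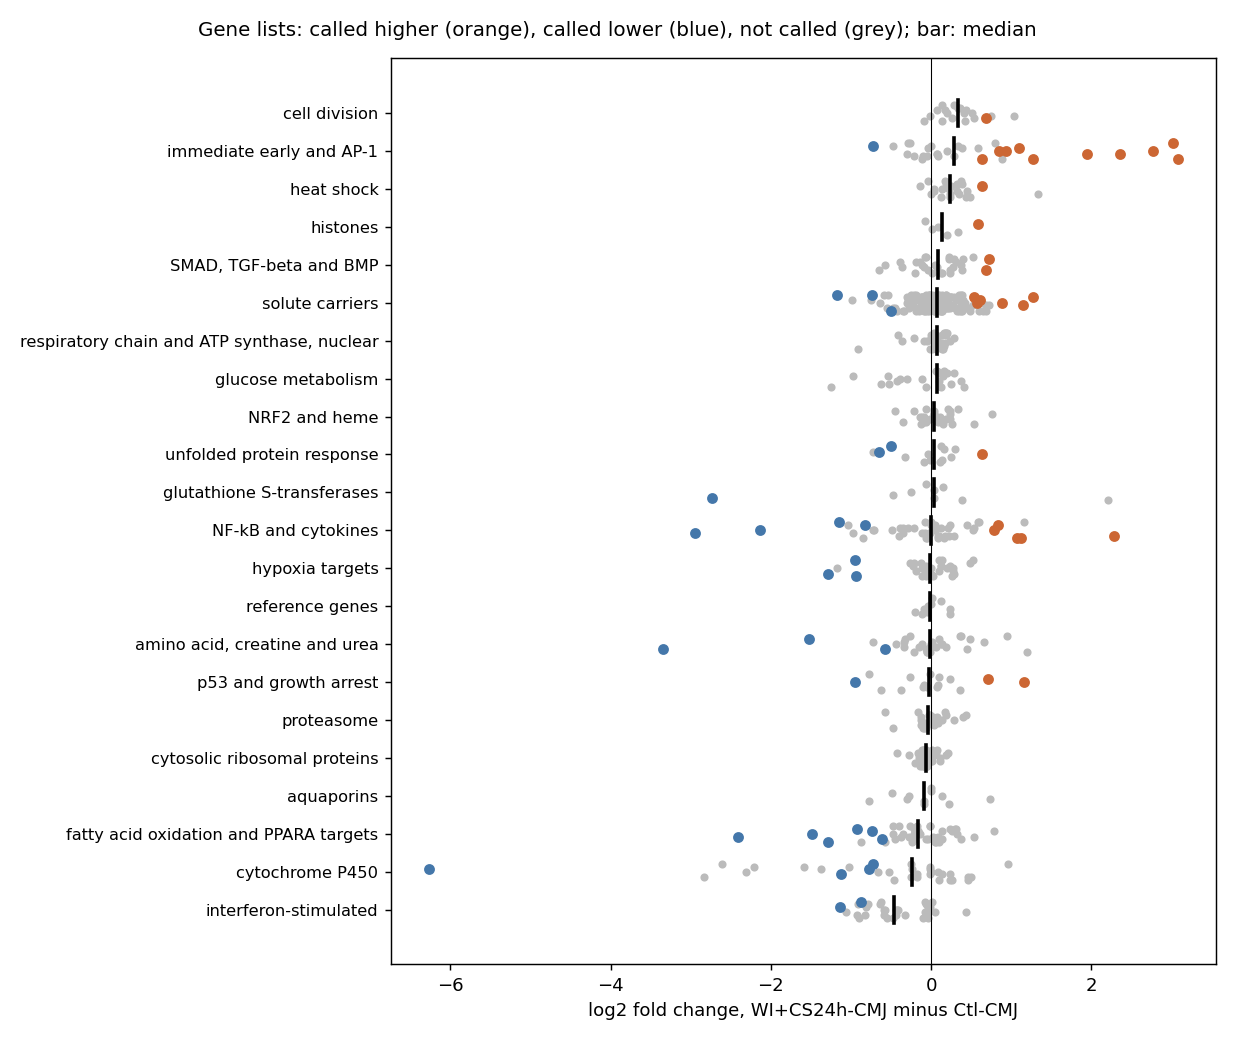
Log2 difference between WI+CS24h and Ctl in the CMJ (horizontal axis) for each measured member of the lists reported here that had more than 5 measured members. Orange and blue points were called higher and lower, grey points were not called, and the vertical bar is the list's median, from -0.46 (interferon-stimulated) to 0.34 (cell division).

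The WI group was then set beside the stored kidneys, to see which genes differed directly after the 60 min at 37 °C. WI and WI+CS24h share the Ctl arrays in their comparisons with Ctl, so the values are given side by side. After warm ischemia alone, 0.687% of genes were called against Ctl. FOS was 2.59 above Ctl in WI (adjusted p = 2.33e-05) and 3.02 above it in WI+CS24h. FOSB, dim on every Ctl array, was at least 2.93-fold higher in WI (adjusted p = 0.000386) beside the at least 2.21-fold of WI+CS24h. EGR1 was 2.34 above Ctl in WI (adjusted p = 7.44e-05), IL1B 2.18 (adjusted p = 0.0199) and BTG2 1.3 (adjusted p = 0.00503). MAP3K8 was below Ctl in WI, at -1.1 (adjusted p = 0.00955). Their differences between WI+CS24h and WI were 0.43 for FOS, 0.02 for EGR1, -0.4 for FOSB, 0.1 for IL1B, 0.65 for BTG2 and -0.05 for MAP3K8, and none was called (adjusted p from 0.0874 to 0.99).

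Between WI+CS24h and WI, 2.85% of genes were called, 444 higher and 580 lower, a balance that turned to 1164 higher and 531 lower with quantile normalisation within each group. FUT2 was called against WI (adjusted p = 3.14e-08) and not in WI against Ctl (adjusted p = 0.997), with the limit on its size given above. The falls of CDO1 (-0.15 and -3.18), GSTA2 (-0.21 and -2.52), PDK4 (-0.03 and -2.38), IL6 (-0.22 and -1.92), CCL26 (0.04 and -2.97) and ANGPTL4 (0.11 and -1.4) followed the same order. CYP2C42 was 0.03 below Ctl in WI and at least 26.3-fold lower in WI+CS24h than in WI, a bound since it was dim on every stored array (53.5-fold without WI kidney 4, which read 3.12). Each of these was called against WI (adjusted p from 5.78e-05 to 0.0371), and none was called in WI against Ctl (adjusted p from 0.809 to 0.997). NR4A2 was called in both, at 1.47 in WI against Ctl (adjusted p = 0.0366) and 1.3 in WI+CS24h against WI (adjusted p = 0.0274).

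By list, 6 of the 31 immediate early genes were called higher and 1 lower in WI against Ctl (median 0.24), and 4 higher and 2 lower in WI+CS24h against WI (median -0.01). Over all genes 0.687% and 2.85% were called in these comparisons, which also stand behind the counts of the other lists. For the 44 fatty acid genes, 1 was called higher and none lower in WI against Ctl, and 9 were called lower in WI+CS24h against WI, where HADHA differed by -1.15, CPT2 by -1.12 and PLIN2 by -1.9. Of the 33 P450 genes none was called in WI against Ctl and 7 were called lower against WI, among them CYP2A19 with -3.44 (adjusted p = 0.0319). AP1S3, an adaptor subunit of clathrin coats, and the recombination gene XRCC2 were among the called rises with a symbol against WI, where neither was above background. They were at least 2.92-fold (adjusted p = 0.0236) and 1.12-fold (adjusted p = 0.0194) higher than in WI, but missed the threshold against Ctl (adjusted p = 0.0845 and 0.0514). IER3 and HHIPL2 were among the 12 called falls with a symbol in WI against Ctl, at -0.9 and -0.75. In WI+CS24h IER3 was 0.3 below Ctl, which was not called (adjusted p = 0.322), and HHIPL2 differed by -0.57 (adjusted p = 0.0426), a call that was lost in 14 of 23 alternatives, with an adjusted p of up to 0.105.

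**Figure D5:**
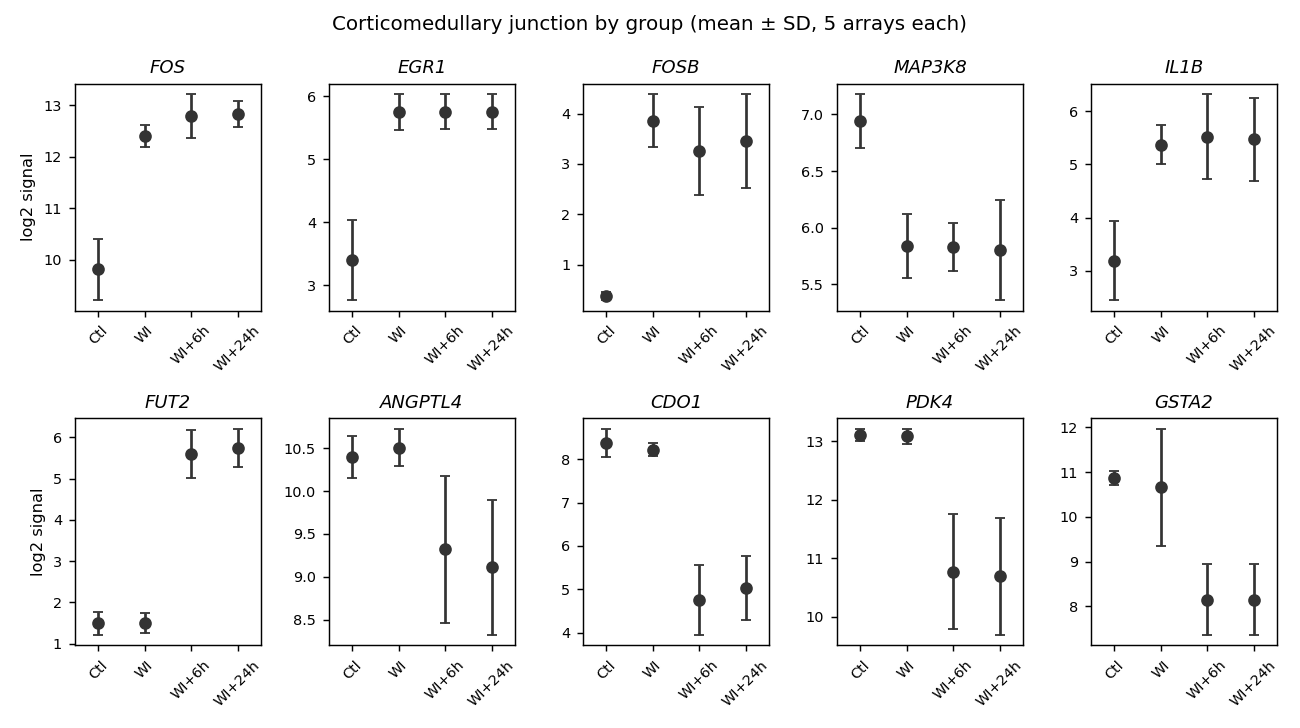
Mean log2 signal ± SD (vertical axes) of 10 genes in the 4 CMJ groups, 5 arrays each. FOS, EGR1, FOSB, MAP3K8 and IL1B (top row) are away from Ctl in WI already, while FUT2, ANGPTL4, CDO1, PDK4 and GSTA2 (bottom row) are near Ctl in WI and away from it at 24 h. At 6 h FUT2, CDO1, PDK4 and GSTA2 are away from Ctl too. The SD bars of ANGPTL4 at 6 h (9.32 ± 0.86) and in Ctl (10.4 ± 0.25) still overlap. The SD bars of WI and Ctl overlap for each gene of the bottom row, and the level of FUT2 averages 3 probes of which 2 were at background in Ctl.

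The length of cold storage was examined through the same kidneys at 6 h and 24 h. By the limma fit, 0.00278% of genes was called, that is 1, an unnamed identifier (A_72_P273339) near background that fell by 0.8 ± 0.11 on the log2 scale (adjusted p = 0.0246), from a mean of 1.04 to 0.25. At an unadjusted p under 0.05 there were 1238 genes. The count of called genes depended on the scaling, since quantile normalisation within each group gave 352 (304 higher, 48 lower). With the kidney as a block in a fit of these 10 arrays, none was called, 1722 had an unadjusted p under 0.05 and the smallest adjusted p was 0.89. Of the 64 genes named by rule, 60 had a mean change from 6 h to 24 h within 0.25 log2 units of 0, and the full range was -0.61 to 0.59. FOS stood 2.98 above Ctl at 6 h and 3.02 at 24 h, GSTA2 at -2.72 and -2.73, and CDO1 at -3.61 and -3.34. ANGPTL4 stood at -1.08 at 6 h (adjusted p = 0.116) and -1.29 at 24 h, and by the unpaired fit the times differed by -0.22 ± 0.37 (adjusted p = 1). Within kidneys ANGPTL4 changed by -0.46 to 0.03 (SD 0.21, adjusted p = 0.89 in the paired fit). CDO1 rose within every kidney, by 0.09 to 0.68 (adjusted p = 0.89 in the paired fit). The changes of FOS and GSTA2 lay on both sides of 0.

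The cortex of the Ctl and WI+CS24h kidneys gave 4.42% of genes called. A test of the difference between the CMJ and cortex responses called 0% of 35934 genes by limma, and 928 had an unadjusted p under 0.05. That count depended on the scaling, since quantile normalisation within each group gave 194 (190 higher, 4 lower). In the cortex FOS differed by 2.55 (adjusted p = 7.87e-09), ANGPTL4 by -1.31 (adjusted p = 0.0416), and GSTA2 by -2.79 (adjusted p = 0.000541), beside the CMJ values of 3.02, -1.29 and -2.73. CYP2C42 was at least 53.6-fold lower in the cortex (adjusted p = 1.44e-05), beside the CMJ bound of 26.8-fold, or 50.6-fold without control kidney 5. Among the named genes, IL6 and AKR1B1 stood far apart between the regions. IL6 differed by -0.46 in the cortex (adjusted p = 0.455), where Ctl had a mean of 2.39 against 3.98 in the CMJ, and the difference between the responses was -1.68 ± 0.46 (adjusted p = 1). AKR1B1 differed by 0.27 in the cortex, from a Ctl mean of 6.78 against 8.61 in the CMJ, with a difference between the responses of -1.67 ± 0.4 (adjusted p = 1). The regions were sampled from the same kidneys, which this fit does not use. With the kidney as a random block (correlation 0.108) 0 genes were called, 1242 had an unadjusted p under 0.05, and the differences between the responses were -1.68 ± 0.42 for IL6 (adjusted p = 1) and -1.67 ± 0.38 for AKR1B1 (adjusted p = 0.812). A difference between the regions was therefore not shown for these genes by either fit. NMU was not well above background on any Ctl or WI+CS24h cortex array, so its fall had no counterpart that could be measured there.

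Scan day and slide were read from the scanner files. With scan day as a term 1310 genes were called against Ctl, and 4 of the 60 called named genes lost the call. With the slide as a random block 1530 were called and 0 of the 60 lost the call. Within slide 10, HSD17B4 and MTHFD1 had the opposite sign. The signs of the named genes within a scan day or slide are not separate evidence, since these genes were chosen for their difference on the same arrays. With kidney 5 left out, 5 of the called named genes lost the call, AKR1B1, DNAJA4, ERN1, HHIPL2 and TRPM6.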

How the data were processed

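Total RNA from CMJ and cortex biopsies was labelled with Cy3 and hybridised, 1 sample per array, to Agilent 44k porcine arrays. The authors extracted spot intensities with Agilent Feature Extraction 11.5.1.1, which subtracts background, and, per the labels' processing notes, used R 2.15.2 and limma. The deposited scanner files hold the processed intensity of each spot, and the deposited matrix holds log2 quantile-normalised values, made by the authors and used here as an alternative only.

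Intensities of non-control spots were taken to log2, outlier spots were set to missing, and the 40 arrays were quantile-normalised together and averaged by identifier (43803 probes, 35955 identifiers). Groups and replicate numbers came from the sample labels. limma 3.58.1 in R 4.3.3 (lmFit and eBayes, 1 term per group, 20 CMJ arrays) gave differences, standard errors and Benjamini-Hochberg adjusted p. Both storage times of a stored kidney entered this fit as independent arrays, so its standard errors and p values ignore the repeat sampling. With only the compared groups in the fit, 782 genes were called against Ctl in place of 1313. Of the 60 called named genes, 15 then lost the call. That fit also holds fewer arrays, and the part of the repeat sampling in the loss was not tested. The comparison of CMJ with cortex was fitted on all 40 arrays. Missing spots were left out of the fit of that gene. A gene dim on every array of a group has a bound in place of a fold change, the bright group's mean against the higher of the lowest signal well above background and the dim signal. The number of arrays limits the precision. Symbols came from the array design and RefSeq. For 8944 identifiers, 7457 different symbols were found. Of several identifiers of a gene the brightest stands for it in counts over lists.

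The genes named are FOS, ANGPTL4 and GSTA2, the 12 largest rises and falls with a symbol and non-overlapping arrays, up to 4 called members of each list by adjusted p, and the 3 largest of each other comparison in each direction. Members that were not called may be named with their values. One of the rises and 1 list are not reported here. The arrays of each group were taken by their labels, but the comparison, the marker genes and the lists were chosen with earlier results of these data known. The replicate numbers pair the 6 h and 24 h samples, which the labels say are the same kidneys. Over 17111 genes, deviations from the group means correlated at 0.65 to 0.89 between samples of the same number, against a median of -0.34 otherwise. Numbers did not pair Ctl or WI with the stored kidneys (-0.39 to 0.2 and -0.19 to 0.07). Cortex and CMJ of a treatment came from the same 5 kidneys. Their same-numbered samples correlated at 0.23 to 0.73 in WI+CS24h (median -0.23 otherwise) and at -0.27 to 0.24 in Ctl (-0.03 otherwise). The fit was also run on simulated data with independent noise on every array, which leaves out the repeat sampling of the stored kidneys. Its outcome is not used as support here. Alternatives changed the normalisation, background correction, filters, probes, blocks, covariates, threshold and arrays. Leaving out kidney 5, keeping 1 identifier per symbol, pairing the storage times and the kidney as a random block over all arrays were added after the data were seen.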

Additional observations from a re-analysis of the deposited data

Results flagged for a closer look

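In 8 of 128 checks of a named gene in a group of 5 arrays, 1 array lay far from the other 4 for the spread of its group. Chance alone gives about 1 in 20 of such checks. The gap to the nearest array is given as a share of the group's range. In WI+CS24h, kidney 5 was highest for CELA2A (7.12, gap 0.753) and lowest for GATA3 (8.4, gap 0.768), kidney 2 was highest for CYP39A1 (7.88, gap 0.835) and kidney 3 was lowest for SLC22A2 (9.84, gap 0.728). In Ctl, kidney 5 was lowest for CYP2C42 (3.58, gap 0.803) and highest for DYRK2 (6.81, gap 0.775), and kidney 4 was highest for HHIPL2 (9.34, gap 0.711) and lowest for HSD11B2 (10.08, gap 0.745).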

How the results depend on the processing

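The count of genes called in WI+CS24h against Ctl (1313) was 188 with normexp background correction, 548 with the deposited matrix, 782 when only the compared groups entered the fit, 425 at a log2 threshold of 1 and 300 (153 higher, 147 lower) with 1 identifier per symbol, which tests fewer genes. It ranged from 977 to 1351 when 1 array was left out. Quantile normalisation within each group moved the median of all genes to 0.12 and the share of calls that were higher from 37 to 54.8%. Against WI (1024 called) the counts were 1695 with quantile normalisation within groups (68.7% higher, against 43.4%), 165, 466 and 463 with normexp, the deposited matrix and the compared groups alone, and 331 at a threshold of 1. They ranged from 664 (WI replicate 5 left out) to 1071 when 1 array was left out. Against 6 h the count was 352 with quantile normalisation within groups and 0 with the 75th percentile, normexp, dim genes left out, the deposited matrix, the replicate block, the paired replicate block, only the compared groups, the covariate of spots above background and a threshold of 1, and 0 to 1 when 1 array was left out. The comparison of CMJ with cortex gave 194 with quantile normalisation within groups, 1 with the deposited matrix and 0 to 2 when 1 array was left out (2 without Ctl replicate 3). With the replicate number as a block the counts were 1443 against Ctl and 1153 against WI. That block also ties together unrelated Ctl, WI and stored kidneys of a number, so it does not stand for the kidney. With the slide as a random block the count against Ctl was 1530 (correlation 0.176). The causes were not tested. Of the 60 called named genes, 20 kept their call in every alternative tried, 40 lost it in at least 1 (28 of them with normexp) and 0 reversed. Signal over background limits the dim genes, and 183 of the 1313 were not well above background in at least 1 group and 62 in both.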

Other observations

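Identifiers with and without a gene symbol divided differently. Of 8942 tested identifiers with a symbol, 338 were called (3.78%), 167 higher and 171 lower. Of 26996 without one, 975 were called (3.61%), 319 higher and 656 lower, so 49.4% of the calls with a symbol and 32.7% of those without were higher. Among the stored kidneys, MIOX read 14.26 and 14.43 in kidneys 1 and 2, 12.46 and 12.73 in kidneys 3 and 4 and 13.21 in kidney 5, against 12.93 to 13 in Ctl.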
